A study of Mus musculus with 16 samples.

Results

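Liver RNA of mice kept under sustained hypoxia was compared with that of mice kept in room air, over all genes measured. The samples were chosen by their treatment labels, which gave 4 sustained hypoxia and 4 room air libraries, 8 of the 16 samples in the series. All mice were wild type C57BL/6J, aged 12 weeks, and the only labelled difference between the groups was the air they breathed. The other 8 libraries, from intermittent hypoxia and from overlap hypoxia (both patterns together), are used below for a second fit that estimates the spread over 16 libraries, which also entered the choice of named genes, and for values set side by side. The oxygen level, the length of exposure, the time of day of collection and feeding state are not stated in the sources used here. Replicates are labelled only as separate samples, so each p-value rests on a spread among libraries that may be technical.

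The liver stores glucose as glycogen and releases it between meals. It also burns fatty acids under the control of the nuclear receptor PPARA, and makes new fatty acids and cholesterol when insulin is high. Many of these enzymes follow the circadian clock, in which the activators CLOCK and BMAL1 (gene Arntl) drive repressors and outputs such as Per2 and Dbp through E-box sequences. When oxygen falls, the hypoxia-inducible factors (HIF) are stabilised and induce genes of glycolysis, blood vessel growth and red cell production.

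Library totals lay between 37962789 and 64789635 counts. The extraction text names retina, whereas the tissue label is liver. The summed level of 11 hepatocyte markers was 69303 to 103867 CPM (counts scaled with edgeR to a common library size) over the 8 libraries. Of the 10 retina markers, 4 (Rcvrn, Pde6b, Opn1mw, Rlbp1) were at 0 in all 8 and the list summed to 4.13 to 11.5 CPM. Ribosomal RNA took 10.2, 3.43, 5.69 and 1.57% of the counts in room air replicates 1 to 4 and 1.55, 1.57, 2.76 and 2.77% in sustained hypoxia (95% Wilson interval of the highest 10.16 to 10.18%, counting error only). Major urinary proteins, abundant secreted carriers of male mouse liver, took 20.9, 25.4, 14.7 and 19.2% against 12.2, 9.63, 20.5 and 21.4%. The groups overlapped in both shares (exact two-sided permutation p = 0.114 and 0.286, both 0.476 after Benjamini-Hochberg adjustment over 5 measures, where the smallest possible p is 0.0286). In raw counts, sustained hypoxia replicates 1 and 2, and replicates 3 and 4, were closer to each other than any other 2 libraries of a group. Their chi-square per degree of freedom was 72.7 and 93.3 against 190 to 421. Both shares above split the same way, but their abundant genes enter this measure and weigh heavily in it. Log CPM gave a mixed picture. On principal component 1 (24.1% of the variance) replicate 4 stood at 7.77 and replicates 1 to 3 at 26.5 to 29.8. Component 3 (16.3%) had replicates 1 and 2 at 27.3 and 18.5, and 3 and 4 at −18.9 and −35.2. The labels do not say whether these replicates were collected or prepared in pairs, which was not tested. Pairs would leave fewer independent samples than 4 behind each p-value.

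**Figure D1:**
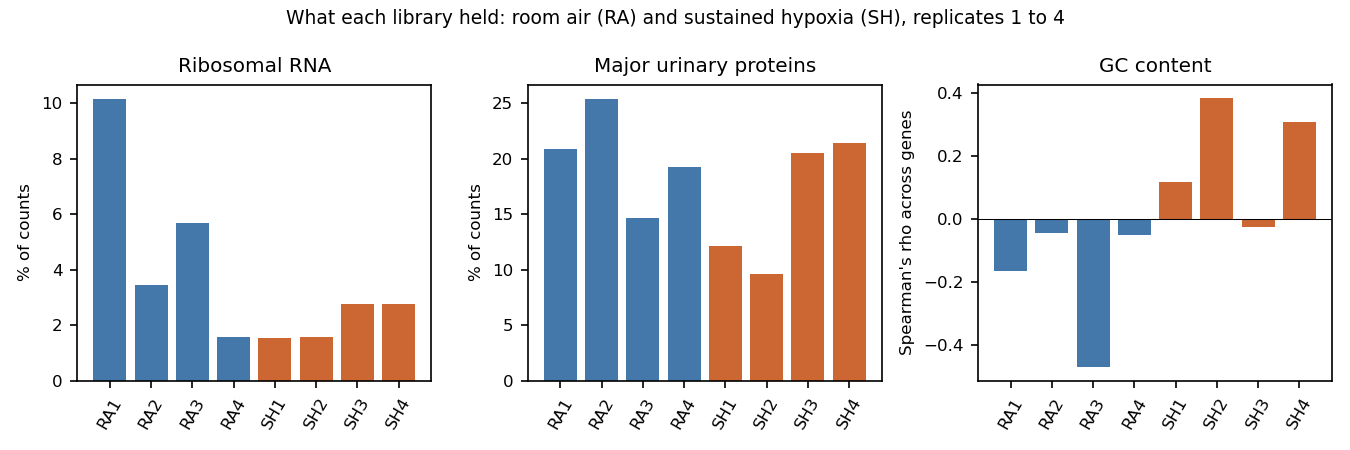
Share of counts from ribosomal RNA and from major urinary proteins (%, bars, 1 per library), and Spearman's rho across genes between GC content and each gene's deviation from its mean over the 8 libraries. Ribosomal RNA reached 10.2% in room air replicate 1, and rho was below 0 in all 4 room air libraries and above 0 in 3 of 4 sustained hypoxia libraries.

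Sustained hypoxia livers had less RNA of G6pc, which serves glucose release, and of Plin2, which coats fat droplets, and more of the clock output gene Dbp. Of 13742 genes tested, 91 passed at a Benjamini-Hochberg adjusted p under 0.05 in edgeR's quasi-likelihood test (0.662% of genes), 51 higher (0.371%) and 40 lower (0.291%) in sustained hypoxia. Rises spanned log2 fold changes of 0.58 to 2.15 and falls −0.55 to −2.33, and 23 of the rises and 18 of the falls were at least 2-fold. In 90 of the 91 the 2 groups' CPM ranges did not overlap. Over all genes, 657 (4.78%) lay wholly higher and 596 (4.34%) wholly lower in sustained hypoxia.

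Most calls lay near the threshold, 50 of them at the same adjusted p of 0.0447. When the spread was estimated over all 16 libraries, 7 of 14553 genes passed (0.0481%). Of these, 6 also passed with 8 libraries, namely G6pc, Plin2, Hsdl2 and Tmem56, which were lower, and Dbp and Dedd2, which were higher. The other gene was Gsta2. The biological coefficient of variation, the typical spread among replicates of a group, came to 0.228 for room air and 0.232 for sustained hypoxia, against 0.346 and 0.30 for intermittent and overlap hypoxia. The 8-library fit was therefore used, knowing that it called more genes.

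Single libraries set the count. It was 0 without sustained hypoxia replicate 2 (1724 genes at an unadjusted p under 0.05), 1 without replicate 3 and 26 without replicate 1, whereas without replicate 4 it came to 185 higher and 131 lower. Without room air replicates 1, 2, 3 and 4 it was 22, 7, 8 and 271. Where the genes tested were held to the same 13742, it was 6 without sustained hypoxia replicate 2, 31 without replicate 1, 16 without room air replicate 2 and 279 without room air replicate 4. No gene kept its call in all 8 fits that left out a library, and on the same genes only G6pc did. With the ribosomal share as covariate 1 gene passed, and it was none of the 91 (1520 genes at an unadjusted p under 0.05). No gene among the 91 changed direction in any of these fits. As the 91 were picked for a clear difference in these same libraries, that was nearly fixed in advance. Sustained hypoxia replicate 4 was the sustained library nearest to room air for 44 of the 91 genes, replicate 3 for 22, replicate 1 for 17 and replicate 2 for 8. Among room air libraries, replicate 4 was nearest to sustained hypoxia for 37, replicate 2 for 27, replicate 1 for 21 and replicate 3 for 6.

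Called genes also differed in sequence composition. GC content was taken from each gene's longest transcript. Its median was 54.3% among genes called higher, 44.3% among those called lower and 49.1% over all genes tested. Median exonic lengths, over all exons of a gene, were 3104, 5003.5 and 4100 bases. Across all genes, which are not independent replicates, Spearman's rho of the log2 fold change with GC content was 0.392 and with length −0.134. With offsets for both, 64 genes passed, 46 of them among the 91. The part of GC content, ribosomal RNA or single libraries in these results was not tested further.

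**Figure D2:**
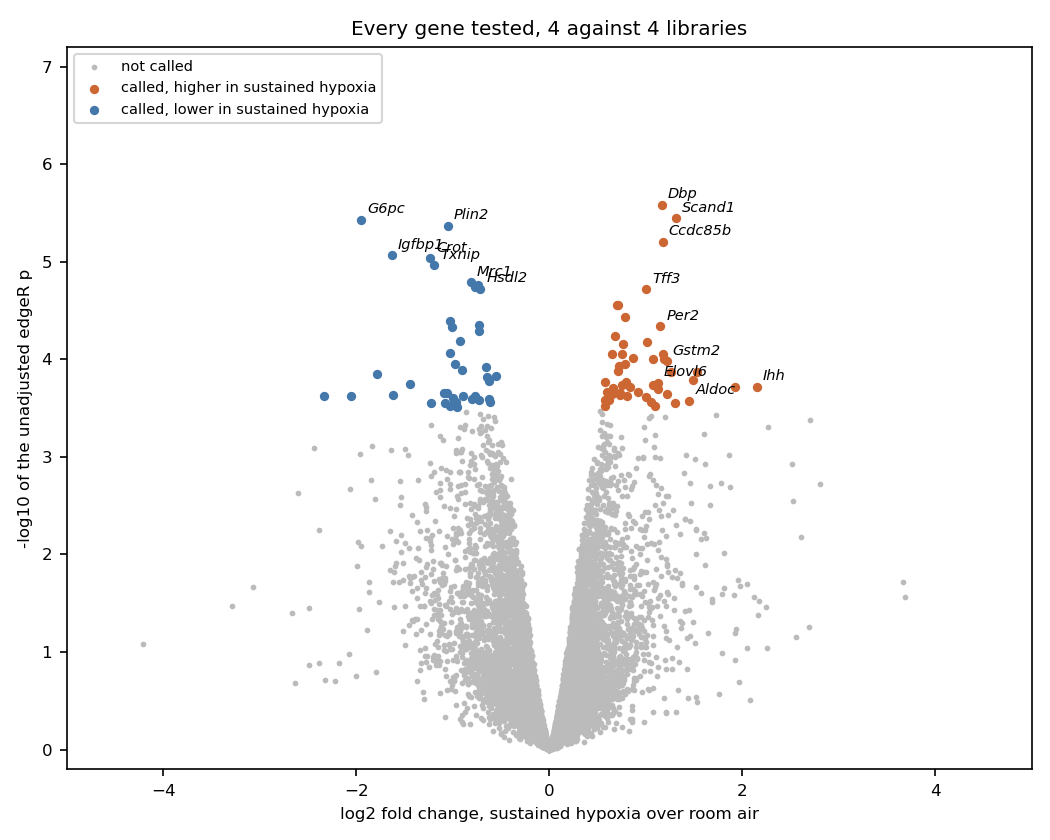
Log2 fold change (sustained hypoxia over room air, x axis) against −log10 of the unadjusted edgeR p (y axis) for each of the 13742 genes tested. Coloured points are the 51 genes called higher and 40 called lower. The lowest p among falls belongs to G6pc and among rises to Dbp.

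Of the genes called lower, G6pc had the lowest p. G6pc (ENSMUSG00000078650, chromosome 11, 101367561 to 101377903, plus strand), the catalytic subunit of glucose-6-phosphatase and the last step of glucose output, stood at 146, 173, 129 and 148 CPM in room air and 28.6, 32.1, 60.8 and 32.97 CPM in sustained hypoxia. All 4 sustained hypoxia libraries lay far below the lowest room air library, with replicate 3 the highest of them. G6pc fell by 1.95 on the log2 scale (SE 0.23, edgeR adjusted p = 0.0147) and by 1.83 to 2.26 in fits that left out a library, with its call kept in 7 of 8. Igfbp1 (ENSMUSG00000020429, chromosome 11, 7197782 to 7202546, plus strand), a secreted binding protein of insulin-like growth factors whose gene insulin represses, stood at 40.4, 43.6, 67.6 and 61.7 CPM in room air and 15.3, 13.4, 16.2 and 23.98 CPM in sustained hypoxia. The groups were again apart, and Igfbp1 fell (by edgeR, log2 change −1.63 with SE 0.21 and adjusted p = 0.0181).

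The promoters of both genes are shown because both fell and are known targets of FoxO factors. Each runs from 250 bases before the RefSeq start site to 2 bases after it (GRCm38.p6, chr11:101367466-101367717 and chr11:7197537-7197788, both on the plus strand). Of 6 motifs searched on both strands, capitals mark 4 (D-box, E-box, FoxO site and sterol element), here a D-box (TTACGTAA or TTATGTAA), the sequence bound by DBP and its relatives. The other 2 were the short hypoxia element (ACGTG), which the E-box contains, and the metal element (TGCACNC or TGCGCNC), and both stay in lower case.
G6pc: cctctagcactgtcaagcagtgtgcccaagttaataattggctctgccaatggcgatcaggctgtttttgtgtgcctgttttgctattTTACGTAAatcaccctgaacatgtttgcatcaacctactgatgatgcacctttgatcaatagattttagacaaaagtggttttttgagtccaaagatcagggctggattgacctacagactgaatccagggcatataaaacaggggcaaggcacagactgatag
Igfbp1: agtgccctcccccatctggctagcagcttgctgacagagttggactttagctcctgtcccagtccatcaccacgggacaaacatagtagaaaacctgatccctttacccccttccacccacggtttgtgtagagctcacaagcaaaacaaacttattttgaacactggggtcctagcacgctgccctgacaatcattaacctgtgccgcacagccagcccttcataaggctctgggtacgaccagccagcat
The D-box of G6pc lay 162 to 155 bases before the RefSeq start site, and which factors bind it was not measured. The GENCODE gene starts given above for G6pc and Igfbp1 fall inside these windows, before the RefSeq start sites. A D-box occurred in 1.06% of all 32851 promoter windows of 300 bases, a hypoxia element in 19.6% and a metal element in 25.7%. The Igfbp1 window held no match to the D-box, the E-box (CACGTG), the FoxO site (GTAAACA) or the sterol element (TCACNCCAC). Only these letters were searched, so other forms of a FoxO site in either promoter were not looked for and stay in lower case. Neither window held a hypoxia or a metal element.

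Among 16 genes of glucose production G6pc was the only one to pass, and the list's median log2 fold change was −0.05 against −0.0027 over all genes tested. Pck1, which makes phosphoenolpyruvate for new glucose, stood at 846, 1715, 2081 and 1608 CPM in room air and 862, 1060.0, 1364 and 1364 CPM in sustained hypoxia, with overlapping groups (log2 −0.43, edgeR adjusted p = 0.438). Slc37a4, the transporter that feeds glucose-6-phosphate to G6PC, stood at 78.5, 108, 138 and 159 CPM against 235, 189, 187 and 170.1 CPM, higher in every sustained hypoxia library but not past the threshold (log2 0.69, edgeR adjusted p = 0.107).

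Of 16 insulin and FoxO targets 1 rose, 1 fell and 14 did not pass (median 0.02). The fall was that of Igfbp1. Foxo3, a forkhead factor kept out of the nucleus by insulin signalling, rose from 8.78 ± 2.13 to 15.7 ± 1.73 CPM (SD, n = 4; by edgeR, log2 change 0.84 with SE 0.17 and adjusted p = 0.0447). Pdk4, which blocks entry of pyruvate into the citric acid cycle, stood at log2 −1.27 (edgeR adjusted p = 0.107) and Trib1, a pseudokinase, at −0.51 (edgeR adjusted p = 0.0723). Txnip, a thioredoxin-binding protein that restrains glucose uptake, stood at 126, 124, 155 and 126 CPM in room air and 40.5, 65.5, 50.03 and 75.6 CPM in sustained hypoxia, without overlap, and fell (by edgeR, log2 change −1.20 with SE 0.17 and adjusted p = 0.0188). Txnip was the only one of 18 genes in the list of peroxide and superoxide removal to pass (median 0.13). Trp53inp1, a p53-induced nuclear protein, fell from 25.5 ± 11.01 to 9.38 ± 1.13 CPM and was the only one of 17 p53 targets to pass (by edgeR, log2 change −1.45 with SE 0.25 and adjusted p = 0.0447).

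Genes of glucose use and storage had mostly positive values. Of 15 genes of glucose uptake, glycolysis and glycogen 1 rose, none fell and 11 had positive values (median 0.26). Gys2 (ENSMUSG00000030244, chromosome 6, 142422613 to 142473109, minus strand), the glycogen synthase of liver, stood at 93.9, 117, 103 and 122 CPM in room air and 166, 183, 152 and 156 CPM in sustained hypoxia. Every sustained hypoxia library was above every room air library, and Gys2 rose (by edgeR, log2 change 0.59 with SE 0.12 and adjusted p = 0.0447). Pklr, the pyruvate kinase of liver, stood at 51.8, 37.2, 49.99 and 43.1 CPM against 124, 113, 82.9 and 52.4 CPM and did not pass (log2 1.03, edgeR adjusted p = 0.0843). Ppp1r3g, which targets a phosphatase to glycogen, stood far lower in sustained hypoxia at 11.6, 9.54, 16.99 and 26.01 CPM against 2.58, 3.34, 1.27 and 4.57 CPM, yet did not pass (log2 −2.44, edgeR adjusted p = 0.0721). Aldoc, an aldolase that is minor in liver, rose from 9.25 ± 2.21 to 25.3 ± 8.95 CPM (by edgeR, log2 change 1.45 with SE 0.26 and adjusted p = 0.0447).

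Genes of fat storage and burning had mostly negative values. Plin2 (ENSMUSG00000028494, chromosome 4, 86648386 to 86670060, minus strand), the main coat protein of lipid droplets in liver, stood at 401, 600.4, 437 and 382 CPM in room air and 217, 234, 215 and 211 CPM in sustained hypoxia. The sustained hypoxia values lay within a narrow band, below all of room air, and Plin2 fell (by edgeR, log2 change −1.05 with SE 0.15 and adjusted p = 0.0147), with its call kept in 6 of 8 fits that left out a library. Of 17 tested genes of the droplet coat and lipolysis Plin2 was the only one to pass, 14 had negative values and the median was −0.17. G0s2, an inhibitor of the lipase ATGL, stood at 93.4, 114, 214 and 303 CPM against 39.8, 61.4, 105 and 39.1 CPM, overlapping in replicate 3 (log2 −1.56, edgeR adjusted p = 0.203).

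Crot (ENSMUSG00000003623, chromosome 5, 8966033 to 8997324, minus strand), which attaches medium-chain fatty acids to carnitine in peroxisomes, stood at 619, 752, 813 and 627 CPM in room air and 292, 235, 247 and 421 CPM in sustained hypoxia. It was lower in each sustained hypoxia library, least so in replicate 4 (by edgeR, log2 change −1.24 with SE 0.18 and adjusted p = 0.0181). Hsdl2 (ENSMUSG00000028383, chromosome 4, 59581563 to 59618689, plus strand), a peroxisomal protein of the dehydrogenase family, stood at 45.8, 52.9, 59.4 and 56.9 CPM in room air and 34.1, 32.8, 33.7 and 30.6 CPM in sustained hypoxia, without overlap and with a small spread in sustained hypoxia (by edgeR, log2 change −0.71 with SE 0.11 and adjusted p = 0.0201). Crat, the carnitine acetyltransferase, fell from 21.8 ± 3.71 to 11.2 ± 3.11 CPM (by edgeR, log2 change −0.96 with SE 0.19 and adjusted p = 0.0469). Of 37 peroxisomal genes tested 2 fell (Crot and Hsdl2), none rose and 25 had negative values (median −0.09).

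Of 40 PPARA targets and fatty acid oxidation genes, a list that shares members with the peroxisomal one, 2 fell (Hsdl2 and Crat), none rose and 33 had negative values (median −0.20). Among those that did not pass were Slc25a20, the mitochondrial carnitine carrier, at log2 −0.57, and Vnn1, a pantetheinase, at −0.81 (edgeR adjusted p = 0.0568 and 0.0748). Fgf21, a fasting hormone of liver and a PPARA target, stood at 1.51, 1.46, 3.12 and 2.43 CPM in room air and 1.02, 0.577, 0.165 and 0.333 CPM in sustained hypoxia. Its groups did not overlap, but it did not pass (log2 −1.96, edgeR adjusted p = 0.0723).

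Genes of fat and cholesterol synthesis were mostly higher, with few past the threshold. Of 25 tested genes of fatty acid and triglyceride synthesis 2 rose, none fell and 22 had positive values (median 0.46). Elovl6 (ENSMUSG00000041220, chromosome 3, 129532355 to 129638495, plus strand), which lengthens palmitate to stearate, stood at 20.7, 25.3, 26.8 and 31.3 CPM in room air and 65.5, 62.3, 65.3 and 33.5 CPM in sustained hypoxia. Replicates 1 to 3 of sustained hypoxia were about equal, and replicate 4 lay just above room air (by edgeR, log2 change 1.12 with SE 0.21 and adjusted p = 0.0447). Tkfc, the triokinase that passes fructose carbon into glycolysis and fat, rose from 93.1 ± 13.4 to 160.1 ± 29.4 CPM (by edgeR, log2 change 0.78 with SE 0.15 and adjusted p = 0.0442). Fasn, the fatty acid synthase, stood at 56.3, 60.8, 48.2 and 44.8 CPM in room air and 196, 228, 119 and 60.3 CPM in sustained hypoxia. The highest room air library was just above sustained hypoxia replicate 4, and Fasn did not pass (log2 1.52, edgeR adjusted p = 0.125, and past the threshold in 1 of 8 fits that left out a library).

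Promoters of Plin2 and Elovl6 are shown as those of a lipid gene that fell and a lipid gene that rose, chosen after their values were seen (GRCm38.p6, chr4:86670058-86670309 on the minus strand and chr3:129532136-129532387 on the plus strand, over the same distances as above). Capitals mark an E-box in Plin2 and a FoxO site in Elovl6.
Plin2: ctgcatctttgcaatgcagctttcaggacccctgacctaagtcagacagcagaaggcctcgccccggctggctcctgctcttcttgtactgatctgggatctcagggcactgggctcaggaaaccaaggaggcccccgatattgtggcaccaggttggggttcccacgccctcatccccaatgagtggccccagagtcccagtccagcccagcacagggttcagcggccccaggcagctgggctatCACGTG
Elovl6: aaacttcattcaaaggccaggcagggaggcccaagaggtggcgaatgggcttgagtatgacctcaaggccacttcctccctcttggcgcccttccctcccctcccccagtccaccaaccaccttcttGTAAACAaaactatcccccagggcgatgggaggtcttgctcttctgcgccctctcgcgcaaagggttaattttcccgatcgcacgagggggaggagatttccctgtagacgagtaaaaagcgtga
The E-box of Plin2 spanned the start site from 4 bases before it to base 2, and the FoxO site of Elovl6 lay 123 to 117 bases before. An E-box occurred in 7.15%, a FoxO site in 3.65% and a sterol element in 1.24% of all promoter windows. Among 46 windows found for 39 of the 51 genes called higher, 7 held an E-box, 6 a FoxO site, 3 a sterol element, 16 a hypoxia element and 16 a metal element. None of these held a D-box. Among 35 windows for 28 of the 40 genes called lower, 5 held an E-box, 2 a FoxO site, 1 a D-box, 9 a hypoxia element and 14 a metal element. None of them held a sterol element. The window of Elovl6 held both of the last, its hypoxia element beyond the bases shown, and that of Plin2 the hypoxia element within its E-box. These matches were not tested against all windows.

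Of 27 genes of sterol synthesis and uptake 25 had positive values (median 0.56), yet none rose. Fdps, the farnesyl diphosphate synthase, stood at 133, 108, 93.9 and 117 CPM in room air and 352, 365, 262 and 119.7 CPM in sustained hypoxia. Replicates 1 to 3 of sustained hypoxia lay well above room air and replicate 4 within it (log2 1.28, edgeR adjusted p = 0.106). Fdft1, the squalene synthase, stood at 89.8, 60.8, 66.6 and 62.3 CPM against 167, 153, 106 and 75.2 CPM (log2 0.84, edgeR adjusted p = 0.124). The 1 member that passed fell. Insig2 (ENSMUSG00000003721, chromosome 1, 121304353 to 121332589, minus strand), which holds the sterol-sensing SREBP factors back in the endoplasmic reticulum, stood at 154, 132, 142 and 80.2 CPM in room air and 51.9, 56.6, 58.8 and 82.02 CPM in sustained hypoxia. It was the only one of the 91 genes whose groups overlapped, room air replicate 4 lying below sustained hypoxia replicate 4 (by edgeR, log2 change −1.03 with SE 0.20 and adjusted p = 0.0462).

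**Figure D3:**
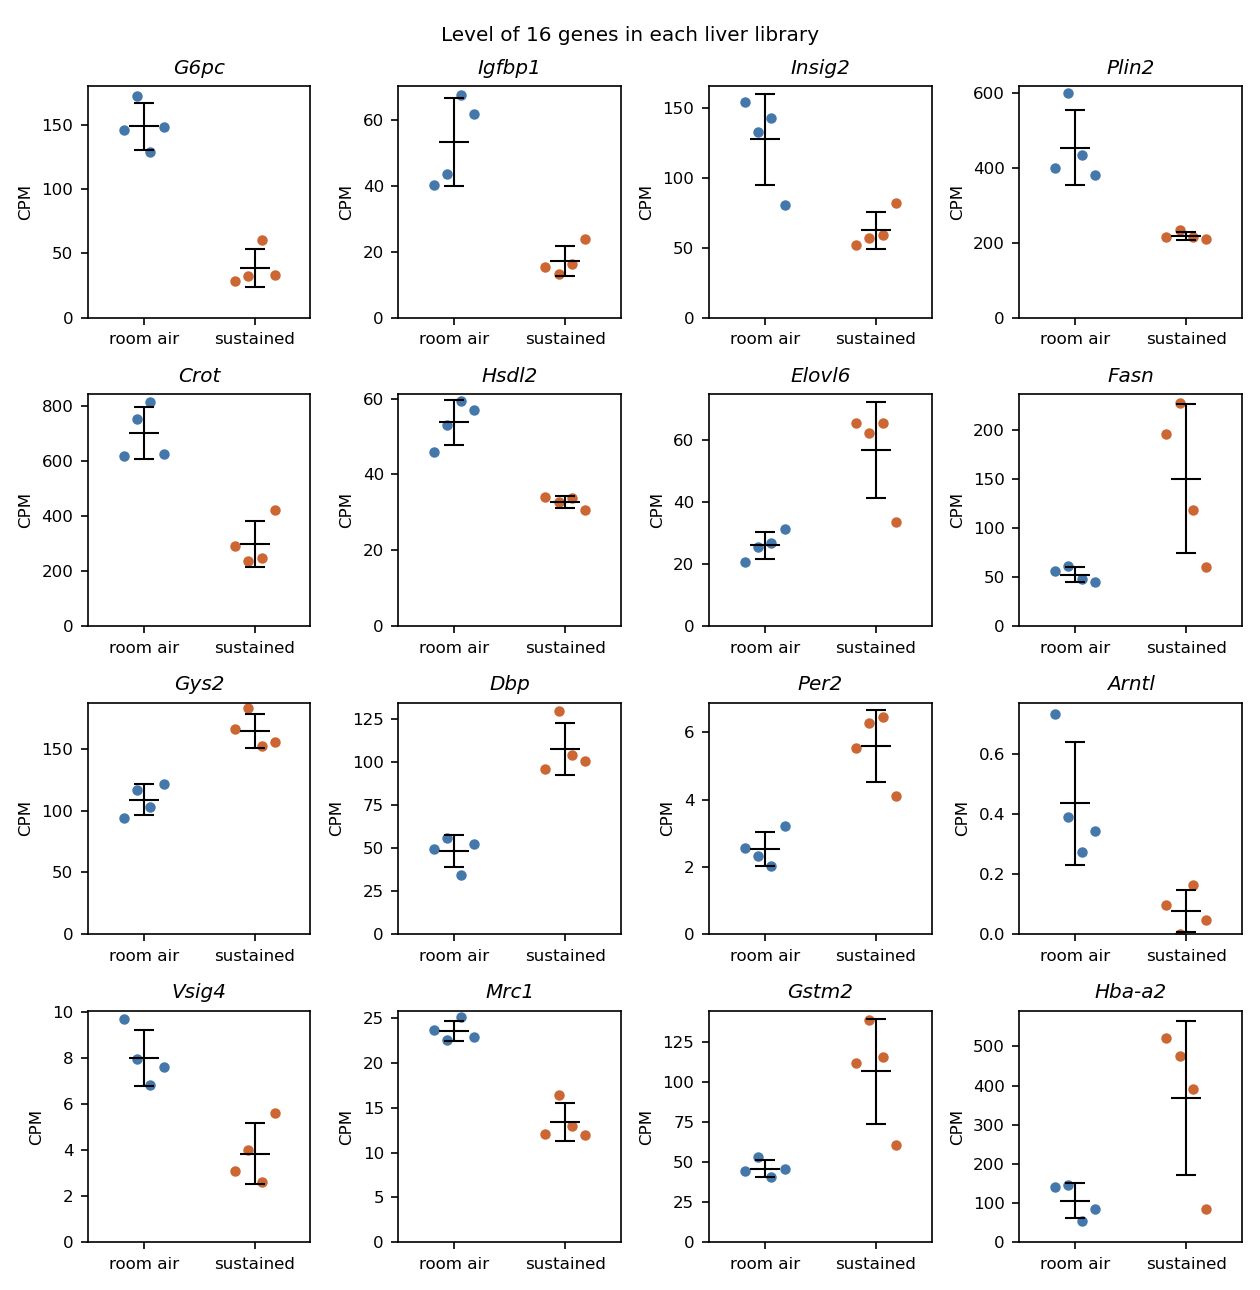
CPM (y axes, linear and from 0) of 16 genes in each of the 4 room air (blue) and 4 sustained hypoxia (orange) libraries, with mean and SD as black bars. G6pc, Igfbp1, Plin2, Crot, Hsdl2, Vsig4 and Mrc1 are lower in every sustained hypoxia library, while Elovl6, Fasn, Gstm2 and Hba-a2 are high in replicates 1 to 3 and nearest to room air in replicate 4.

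Clock genes of the E-box-driven phase had mostly positive values. Dbp (ENSMUSG00000059824, chromosome 7, 45705088 to 45710203, plus strand), a transcription factor that carries the clock to metabolic genes, stood at 49.6, 55.7, 34.6 and 52.5 CPM in room air and 96.2, 130.0, 104 and 101 CPM in sustained hypoxia. Each sustained hypoxia library lay well above each room air library, and Dbp rose (by edgeR, log2 change 1.16 with SE 0.15 and adjusted p = 0.0147), keeping its call in 6 of 8 fits that left out a library. Per2 (ENSMUSG00000055866, chromosome 1, 91415982 to 91459324, minus strand), a repressor of the clock, stood at 2.55, 2.32, 2.02 and 3.22 CPM in room air and 5.54, 6.27, 6.45 and 4.095 CPM in sustained hypoxia and rose (by edgeR, log2 change 1.15 with SE 0.20 and adjusted p = 0.0321). Of 16 evening repressors and outputs these 2 rose, none fell, 11 had positive values and the median was 0.59. Per3 and Tef, another repressor and another output factor, stood at log2 1.15 and 0.66 without passing (edgeR adjusted p = 0.111 and 0.0845).

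The opposite phase was mostly lower, with none of 9 tested genes past the threshold (median −0.72, 7 negative). Arntl, the activator BMAL1, was near the limit of detection at 0.735, 0.3902, 0.275 and 0.344 CPM in room air and 0.09603, 0, 0.165 and 0.0476 CPM in sustained hypoxia. Its groups did not overlap, but the values rest on 82 counts against 14 in all, and it did not pass (log2 −2.60, edgeR adjusted p = 0.0926). Clock, its partner, stood at 10.1, 7.76, 10.3 and 4.94 CPM against 3.46, 2.45, 3.36 and 5.0 CPM, the lowest room air library falling just below the highest sustained one (log2 −1.22, edgeR adjusted p = 0.0596). Collection times are not given, and their part in these values was not tested. The Dbp promoter is shown as that of the rise with the lowest p (GRCm38.p6, chr7:45704997-45705248, plus strand, the same distances). None of the 4 motifs marked by capitals occurred in it, while a hypoxia element and a metal element did.
Dbp: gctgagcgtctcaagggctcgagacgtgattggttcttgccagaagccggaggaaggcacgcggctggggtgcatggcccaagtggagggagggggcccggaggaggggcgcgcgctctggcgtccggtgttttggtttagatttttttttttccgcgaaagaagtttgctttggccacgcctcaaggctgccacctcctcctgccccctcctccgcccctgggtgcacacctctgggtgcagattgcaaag

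No gene listed for the oxygen response passed. Among 32 tested HIF targets there was no call, with 17 positive and 15 negative values and a median of 0.02. This list does not hold every glycolytic gene, and Aldoc and Gpi1, both called higher, are outside it. Vegfa, the vascular growth factor, stood at 28.7, 17.6, 22.4 and 23.9 CPM in room air and 23.3, 30.8, 21.9 and 26.2 CPM in sustained hypoxia, with overlapping groups (log2 0.14, edgeR adjusted p = 0.689). The glycolytic targets stood on both sides. Eno1 and Gapdh were higher (log2 0.53 and 0.68) and Ldha lower (−0.65), with edgeR adjusted p = 0.0613, 0.0769 and 0.0920. None of 12 oxygen-sensing genes passed (median 0.06), and Egln2, a prolyl hydroxylase, had the lowest p among them (log2 0.37, edgeR adjusted p = 0.203). Of 15 genes of blood vessel and endothelial signalling none passed, with 6 positive and 9 negative values. Their median was −0.10, and 0.004 without room air replicate 1.

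Epo, the hormone of red cell production, had 0 counts in all room air libraries and 2 in sustained hypoxia, below the floor of 3 counts, so no fold is given. Red cell transcripts had positive values without passing. All 10 tested erythroid markers had positive values (median 1.39), none passed, and their summed level was 361 to 830.0 CPM in room air and 533 to 2271 CPM in sustained hypoxia. Hba-a2, an alpha globin gene that shares 89.3% of its 50-base words with other genes, stood at 142, 146, 53.6 and 85.7 CPM in room air and 522, 477, 391 and 84.5 CPM in sustained hypoxia. Replicate 4 of sustained hypoxia lay within room air and the others far above it (log2 1.79, edgeR adjusted p = 0.224). Klf1, a red cell transcription factor, stood at 0.908, 0.7999, 0.922 and 1.15 CPM against 2.16, 2.48, 1.32 and 2.07 CPM without overlap (log2 1.10, edgeR adjusted p = 0.0645). Of the erythroid markers Gata1 was at 0 in all 8 libraries. In whole tissue, a change in the number of cells of a type and a change in RNA per cell cannot be told apart.

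Iron genes did not pass in any of 22 cases (median −0.17). Hamp, the iron hormone hepcidin, stood at 989, 1641, 1221 and 843 CPM in room air and 1242, 1088, 709 and 584 CPM in sustained hypoxia, overlapping (log2 −0.37, edgeR adjusted p = 0.536), and Trf, transferrin, at log2 0.58 (edgeR adjusted p = 0.0723). The metallothioneins Mt1 and Mt2, which bind zinc and copper, were lower in each sustained hypoxia library without passing. Mt2 stood at 89.3, 109.5, 83.7 and 48.1 CPM in room air and 31.5, 23.2, 4.38 and 23.8 CPM in sustained hypoxia (log2 −1.99, edgeR adjusted p = 0.177), and 73.5% of it lies across from a gene on the other strand. Strand is not given for these counts, so the 2 cannot be told apart.

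Macrophage and sinusoidal endothelial markers had mostly negative values. Of 18 Kupffer cell markers, which mark the resident macrophages of liver, 1 fell, none rose and 16 had negative values (median −0.55), with a summed level of 420.1 to 565 CPM in room air and 371 to 484 CPM in sustained hypoxia. The fall was that of Vsig4 (ENSMUSG00000044206, chromosome X, 96247203 to 96293438, minus strand), a complement receptor of these cells, at 9.71, 7.96, 6.83 and 7.64 CPM in room air and 3.105, 4.01, 2.65 and 5.64 CPM in sustained hypoxia (by edgeR, log2 change −1.06 with SE 0.21 and adjusted p = 0.0447). Timd4 and Cd163, receptors of the same cells, stood at log2 −1.03 and −1.03 without passing (edgeR adjusted p = 0.0864 and 0.0896). None of the Kupffer markers was at 0 in all libraries.

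All 16 sinusoidal endothelial markers had negative values (median −0.36), 5 without overlap, and 1 fell. Their summed level was 184 to 216 CPM in room air and 137 to 194 CPM in sustained hypoxia. Mrc1 (ENSMUSG00000026712, chromosome 2, 14229392 to 14332057, plus strand), the mannose receptor of these cells and of macrophages, stood at 23.7, 22.5, 25.1 and 22.9 CPM in room air and 12.1, 16.5, 12.96 and 11.98 CPM in sustained hypoxia (by edgeR, log2 change −0.81 with SE 0.13 and adjusted p = 0.0201). Room air values were within a narrow band, all above sustained hypoxia. Bmp2, a signal from endothelium that sets hepcidin, stood at log2 −0.69 (edgeR adjusted p = 0.0555).

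Ptprc, the CD45 phosphatase of white blood cells, stood at 3.699, 3.02, 3.22 and 3.39 CPM in room air and 1.55, 1.71, 1.71 and 1.64 CPM in sustained hypoxia and fell (by edgeR, log2 change −1.01 with SE 0.17 and adjusted p = 0.0321). Adgre4, a macrophage receptor, and Cd55, a complement inhibitor, fell by 1.22 and 1.00 on the log2 scale (edgeR adjusted p = 0.0447 and 0.0447). Of 7 tested monocyte and neutrophil markers none passed and 6 were negative (median −0.51), their sums being 63.6 to 115 CPM against 38.97 to 55.5 CPM. Of 17 lymphocyte and dendritic markers none passed and 15 were negative (median −0.38, sums 94.2 to 197 against 63.3 to 166 CPM). Among 15 stellate cell and fibroblast markers Hgf, the hepatocyte growth factor, fell from 3.12 ± 0.486 to 1.02 ± 0.607 CPM (by edgeR, log2 change −1.61 with SE 0.32 and adjusted p = 0.0447), while the list's median was 0.23 (−0.07 without sustained hypoxia replicate 2) and its sums overlapped. The part of these cell types in the other results was not tested. Interferon-stimulated genes did not pass in any of 31 cases (median 0.10).

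**Figure D4:**
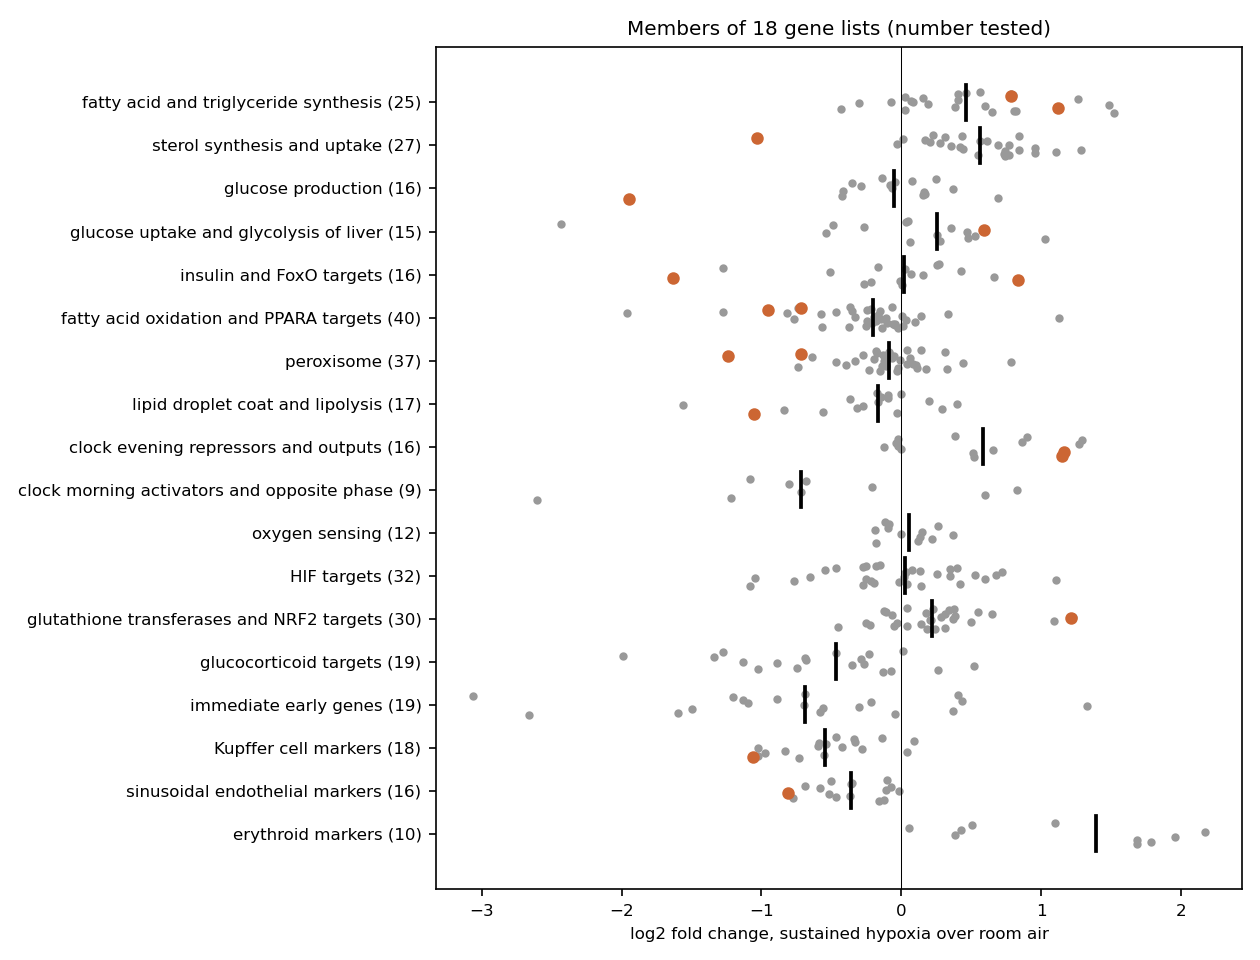
Log2 fold change (x axis) of each tested member of 18 gene lists (y axis, number tested in brackets), with called members in orange and the list's median as a black bar. Sterol synthesis and erythroid medians lie at 0.56 and 1.39, and those of immediate early genes and Kupffer cell markers at −0.69 and −0.55.

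Detoxification genes were partly higher. Of 30 glutathione transferases and NRF2 targets 1 rose, none fell and 22 had positive values (median 0.22). Gstm2 (ENSMUSG00000040562, chromosome 3, 107981702 to 107986453, minus strand), a transferase that couples glutathione to reactive compounds, stood at 44.6, 53.3, 41.1 and 45.6 CPM in room air and 112, 139, 116 and 61.2 CPM in sustained hypoxia. The groups did not overlap, although replicate 4 of sustained hypoxia was near room air (by edgeR, log2 change 1.21 with SE 0.21 and adjusted p = 0.0438). Gsta2, another transferase, stood at 17.1, 22.5, 21.4 and 13.9 CPM against 25.3, 53.9, 47.3 and 33.3 CPM and passed only with 16 libraries (log2 1.09, edgeR adjusted p = 0.0723 with 8 and 0.0337 with 16 libraries). It shares 49.8% of its words with other genes. Fmo2, a flavin monooxygenase and the only one of 17 tested female-biased genes to pass, rose from 2.63 ± 0.669 to 6.09 ± 1.97 CPM (by edgeR, log2 change 1.22 with SE 0.25 and adjusted p = 0.0447).

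None of 39 tested cytochrome P450 and nuclear receptor genes of drug metabolism passed (median 0.14, 28 positive). Cyp2a5, a coumarin hydroxylase, stood at 647, 891, 832 and 1353 CPM against 2249, 2395, 2805 and 1137 CPM, overlapping through replicate 4 of both groups (log2 1.21, edgeR adjusted p = 0.0961). Its near-identical relative Cyp2a4 stood at log2 2.70 (edgeR adjusted p = 0.0565), and reads may be split between the 2. Pericentral genes, expressed around the central vein where oxygen is lowest, had a median of 0.21 with 16 of 22 positive and none passing, Glul, glutamine synthetase, standing at log2 0.63 (edgeR adjusted p = 0.0645). Of 22 periportal genes 1 rose and 1 fell (median 0.03), the fall again being G6pc. The rise was that of Aldh1b1, a mitochondrial aldehyde dehydrogenase, from 9.02 ± 2.77 to 18.99 ± 3.48 CPM (by edgeR, log2 change 1.07 with SE 0.20 and adjusted p = 0.0447).

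Several stress-responsive lists had negative medians without calls. Of 19 immediate early genes 15 were negative (median −0.69) and none passed. Nr4a1, an early response receptor, stood at 3.94, 3.88, 6.199 and 12.03 CPM in room air and 0.08002, 0.289, 0.331 and 2.57 CPM in sustained hypoxia. Its groups did not overlap, yet values within each group differed several-fold (log2 −3.06, edgeR adjusted p = 0.211). Of 19 glucocorticoid targets 16 were negative (median −0.47), with Sgk1, a salt and stress kinase, at log2 −1.02 (edgeR adjusted p = 0.105). In the acute phase list none of 24 passed (median −0.20, and 0.14 without room air replicate 4). Saa2, serum amyloid A, stood at 9.15, 27.3, 10.7 and 1614 CPM against 14.9, 7.33, 31.5 and 36.2 CPM, its difference coming from room air replicate 4 (log2 −4.21, edgeR adjusted p = 0.370). Among 22 ATF4 targets none passed, with 12 positive and 10 negative values and a median of 0.05. Gdf15, a stress hormone and 1 of the negative ones, stood at 10.5, 17.7, 19.3 and 26.7 CPM against 2.897, 2.09, 1.38 and 7.904 CPM (log2 −2.39, edgeR adjusted p = 0.125).

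Respiratory chain genes of the nucleus had small positive values in 35 of 43 cases (median 0.10), while 12 of 13 genes of the mitochondrial genome were negative (median −0.40), and none passed in either list. The median of the mitochondrial genome was −0.12 with offsets for length and GC content, 0.02 with the ribosomal share as covariate, and −0.65 to −0.24 in fits that left out a library. The mitochondrial share of counts was 2.11% ± 0.680 in room air and 1.58% ± 0.121 in sustained hypoxia (SD, n = 4; exact two-sided permutation p = 0.200). Cytosolic ribosomal proteins (37), amino acid breakdown (43), bile acid (20), lipoprotein (22), chaperone (21), heat shock (20), autophagy (24), tested cell division (17) and male-biased genes (31) held no call, with medians between −0.18 and 0.09.

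The genes that changed most included several outside these lists. Ihh, the hedgehog ligand, rose from 0.554 ± 0.365 to 2.46 ± 0.759 CPM, with all sustained hypoxia values above room air (by edgeR, log2 change 2.15 with SE 0.41 and adjusted p = 0.0447). Cenpm, a centromere protein, rose from 0.604 ± 0.307 to 2.31 ± 0.858 CPM (by edgeR, log2 change 1.93 with SE 0.38 and adjusted p = 0.0447). Scand1 and Ccdc85b, small proteins linked to transcription control, stood at 5.797, 5.17, 3.49 and 4.72 CPM in room air and 8.96, 12.4, 12.8 and 13.4 CPM in sustained hypoxia, and at 6.75, 5.01, 3.86 and 5.87 CPM in room air and 11.5, 13.7, 12.1 and 11.1 CPM in sustained hypoxia. Both pairs of groups were apart (log2 1.31 and 1.17, edgeR adjusted p = 0.0147 and 0.0171), and 40.4% and 24.7% of their exons lie across from a gene on the other strand. Mmp15, a membrane matrix protease, rose by log2 1.18, Syne4, a nuclear envelope protein, by 1.49, Pdzk1ip1 by 1.26, Ifi27l2b by 1.17 and Hcn3, an ion channel, by 1.13, with edgeR adjusted p from 0.0418 to 0.0447. Dedd2, a death effector domain protein and 1 of the 6 genes passing in both fits, stood at 15.1, 17.3, 13.3 and 16.1 CPM in room air and 23.4, 26.1, 25.3 and 26.1 CPM in sustained hypoxia (by edgeR, log2 change 0.71 with SE 0.12 and adjusted p = 0.0258).

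Among falls, Dusp6, the phosphatase that switches off ERK kinase, stood at 25.4, 14.8, 27.6 and 25.7 CPM in room air and 9.41, 8.95, 10.97 and 14.7 CPM in sustained hypoxia and fell by 1.09 on the log2 scale (SE 0.21, edgeR adjusted p = 0.0447). Tmem56, 1 of the 6 genes passing in both fits, stood at 57.7, 62.5, 69.7 and 54.03 CPM in room air and 35.6, 33.1, 38.8 and 38.7 CPM in sustained hypoxia, without overlap (by edgeR, log2 change −0.74 with SE 0.12 and adjusted p = 0.0201). Fam13b, Tmem263 and Rtn4rl1 fell by 1.03, 1.03 and 0.97 on the log2 scale (edgeR adjusted p = 0.0418, 0.0321 and 0.0442).

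Levels in the other exposures are given side by side, since all comparisons share the room air libraries. In the fit over 16 libraries G6pc averaged 144 ± 17.5 CPM under room air and 37.4 ± 14.4 CPM under sustained hypoxia, then 151 ± 20.9 CPM under intermittent and 92.2 ± 33.4 CPM under overlap hypoxia (SD, n = 4 each). Igfbp1 averaged 51.7 ± 12.97, 16.7 ± 4.65, 44.1 ± 19.8 and 42.3 ± 39.7 CPM in the same order, and Txnip 129 ± 14.1, 56.2 ± 15.5, 119 ± 50.6 and 79.5 ± 19.3 CPM. For these 3 genes the lowest mean was in sustained hypoxia, which their choice among genes called lower there favoured. Adgre4, also called lower, averaged 2.05, 0.878, 0.504 and 0.393 CPM in the same order. Plin2 averaged 440.3 ± 94.8, 212 ± 9.16, 156 ± 30.8 and 181 ± 36.8 CPM, and Dbp 46.6 ± 9.13, 104 ± 14.5, 92.6 ± 15.5 and 96.7 ± 16.6 CPM, both on the same side of room air in all exposures. Vegfa averaged 22.4 ± 4.48, 24.7 ± 3.82, 67.9 ± 8.81 and 41.3 ± 9.05 CPM, and Per2 2.45 ± 0.5101, 5.41 ± 1.01, 18.3 ± 6.505 and 8.35 ± 1.98 CPM, each highest in intermittent hypoxia. Differences between the exposures were not tested here.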

How the data were processed

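The authors deposited 1 table of expected counts per gene, where 49.3% of nonzero entries are fractional because RSEM splits ambiguous reads between genes. The submitters' processing notes name RSEM, the aligner Bowtie 1.3.0 and the build GRCm38. The strand setting is not given in the sources used here. Names and coordinates came from GENCODE M21, which gave a symbol to 55227 of 55487 genes. Counts of the 8 libraries were rounded, filtered with filterByExpr, scaled by TMM and tested with edgeR 4.0.16 (robust quasi-likelihood). CPM values use the same scaling, and SE is the log2 change over the square root of edgeR's F. Fits without 1 library ran the filter again. Shared words are 50-base stretches also found in another gene. Promoters are from RefSeq (GRCm38.p6). Its start sites differ from the GENCODE gene starts printed here, so distances hold for the RefSeq sites only.

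The comparison, its 49 gene lists and the choice of 8 libraries were made with earlier results of these data known. Named genes were those called with 8 and with 16 libraries, the 15 largest rises and 15 largest falls (called, groups apart, mean level 2 CPM or more, predicted genes left out), called members and up to 4 others of lowest p in each list, and 17 genes taken in any case. No 2 libraries of a group were duplicates (chi-square per degree of freedom at least 72.7); libraries of different groups were not compared in this way. The edgeR steps were run on simulated counts with known changes and the same spread for every gene. That simulation held no trend with GC content, no unequal ribosomal RNA and no library pairs, so it does not test the calls above. DESeq2 1.42.0 and limma 3.58.1 served as alternatives.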

Additional observations from a re-analysis of the deposited data

Results flagged for a closer look

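For 7 of 98 groups of 4 libraries tested, 1 library stood apart from the other 3 by Dixon's test at the 95% level, where chance flags about 1 in 20 groups. Sustained hypoxia replicate 4 was lower than the others for 3 genes called higher. Elovl6 stood there at 33.5 CPM against 62.3 to 65.5 in replicates 1 to 3, Hcn3 at 2.83 against 4.22 to 4.35 CPM and Ifi27l2b at 4.50 against 7.92 to 8.41 CPM. In sustained hypoxia replicate 3, G6pc stood at 60.8 CPM against 28.6 to 33.0 CPM. In room air replicate 4, Aldoc stood at 12.5 CPM against 7.76 to 8.38 CPM and Syne4 at 0.933 against 0.663 to 0.692 CPM. In room air replicate 3, Txnip stood at 155.3 CPM against 123.7 to 126.3 CPM. For 6 of these 7 genes the library lay on the side of the other group, the exception being Txnip. The cause was not tested.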

How the results depend on the processing

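The count of 91 genes (51 higher, 40 lower) depended on the fit. It was 7 (3 and 4) with all 16 libraries, 50 (26 and 24) with upper-quartile scaling, 877 (460 and 417) without a filter on low counts, 26 (11 and 15) without robust estimation, 1 (0 and 1) with the ribosomal share as covariate, 47 (25 and 22) with limma-voom and 642 (about 3.2e+02 and 326) with DESeq2. With offsets for length and GC content, chosen after seeing the data, it was 64 (41 and 23). Leaving out 1 library gave 0 (sustained hypoxia replicate 2) to about 3.2e+02 (sustained hypoxia replicate 4) calls, 0 to 185 higher and 0 to 169 lower. With the genes tested held the same, an alternative added after seeing the data, it gave 22, 16, 8 and 279 without room air replicates 1 to 4 and 31, 6 and 1 without sustained hypoxia replicates 1 to 3, and without replicate 4 slightly fewer than with the filter run again. Median-of-ratios scaling, the removal of ribosomal, mitochondrial and major urinary protein genes, a filter of 1 CPM and length offsets gave 91, 92, 96 and 88. Same-numbered samples did not deviate together (correlations −0.06 to 0.05, against −0.16 to 0.18 for samples of different number). This gave no sign that the numbers pair samples, but so few libraries cannot exclude it. With a replicate block 43 genes passed (25 and 18). The cause of these shifts was not tested. None of the 91 changed direction under any of these settings, which their choice from the same libraries made nearly certain. With length and GC offsets, limma-voom and DESeq2 alike, 30 passed. The median of 15 of 49 gene lists changed sign under at least 1 alternative. In the fit reported, 11 of these medians lay between −0.18 and 0.10, and the 4 furthest from 0 were those of the acute phase, the mitochondrial genome, stellate cell and adipocyte markers (the last from 0.25 to between −0.39 and 0.38 on leaving out a library). With 4 libraries a group, small changes of scarce transcripts were not measurable at this depth. Epo was below the floor of 3 counts, and Arntl did not pass despite a large difference.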
